A study of Mus musculus with 19 samples.

Results

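The genes described here encode 6 intermediate filament proteins, Des (desmin), Vim (vimentin), Gfap (glial fibrillary acidic protein), Nes (nestin), Synm (synemin) and Lmna (lamins A and C). They were chosen by name, and each matched 1 of the 55487 Ensembl identifiers in the count table. RNASeq counts were available for 19 samples of hepatic stellate cells (HSCs), the vitamin A-storing pericytes of the liver sinusoid, which were sorted by their ultraviolet fluorescence from livers of healthy male Balb/c mice aged 23 to 24 weeks. Cells were either left uncultured (0 h, 2 samples) or kept on collagen-coated plates in medium with 10% serum for 3, 6, 12, 18 and 96 h (3 samples each) or 24 h (2 samples), with a change of medium at 3 h and at 24 h. Sample labels carry a number from 1 to 3, given here as the replicate, and a date. Replicates 1 and 3 share a date, replicate 2 has another, 0 h holds replicates 2 and 3, and 24 h holds replicates 1 and 2. What the number stands for is not stated in the labels. Each sample stands for 2 technical repeats. No genotype or agent separates the groups, which differ by label in time in culture, in plating and in the mix of replicates and dates.

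Intermediate filaments are rope-like polymers of coiled-coil proteins that give cells and nuclei resistance to stretch. Desmin, vimentin and glial fibrillary acidic protein are type III proteins that can form filaments by themselves. Nestin and synemin are large type IV proteins that need such a partner to polymerise, and lamins A and C form the meshwork under the inner nuclear membrane. In the liver, desmin and glial fibrillary acidic protein are classical markers of rodent HSCs, vimentin is shared by mesenchymal, endothelial and blood cells, and nestin is known from progenitor cells and from activated HSCs.

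In GRCm38 coordinates, Des spans chr1:75360329-75368579 on the plus strand, Vim chr2:13573927-13582826 on the plus strand and Nes chr3:87971078-87980451 on the plus strand. Gfap spans chr11:102887336-102900912, Synm chr7:67730160-67759742 and Lmna chr3:88480147-88509956, all on the minus strand. The libraries were made from 3′ ends of transcripts, so a value stands for the whole gene, lamin A and lamin C are not separated, and levels of different genes are not compared per length. Vim, Nes, Gfap and Lmna overlap no other annotated gene. Des overlaps an antisense gene with 0 counts, and Synm overlaps Ttc23 on the opposite strand, which had 444 counts over all samples, and another gene with 0 counts.

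Promoter sequence was taken from RefSeq (GRCm38.p6), and stretches are printed for the 4 genes that passed the test over all timepoints. They lie next to annotated starts. With libraries from 3′ ends, the starts that the counted transcripts use were not measured. All 6 genes matched, with 7 windows of 300 bases (250 before and 50 after an annotated start). Capitals mark a GC box (GGGCGG on either strand) or a TATA box (TATAAA). For Des, Nes and Lmna, the 100 bases shown lie upstream of the exons annotated at that start, at chr1:75360192-75360291 (plus strand), chr3:87970978-87971077 (plus strand) and chr3:88503387-88503486 (minus strand). The Lmna stretch lies in an intron of a longer Lmna transcript. For Vim, only 30 bases at chr2:13574266-13574295 (plus strand) are shown, because a GENCODE transcript has an exon there.
Des: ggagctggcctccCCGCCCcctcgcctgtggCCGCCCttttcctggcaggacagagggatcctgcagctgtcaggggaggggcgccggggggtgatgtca
Nes: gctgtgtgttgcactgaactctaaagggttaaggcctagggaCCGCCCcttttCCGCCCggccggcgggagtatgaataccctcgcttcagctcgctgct
Lmna: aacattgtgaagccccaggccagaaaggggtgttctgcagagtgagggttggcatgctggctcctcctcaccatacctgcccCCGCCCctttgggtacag
Vim: ttcctaacagtgtTATAAAagcagcgccct

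The window of Des and that of Nes each held 2 GC boxes and 1 of the 2 windows of Lmna held 1, whereas Vim, Gfap and Synm had none. A GC box was found in 35.7% of all 32851 RefSeq promoter windows. The Vim window alone held a TATA box, present in 13.6% of windows. An AP-1 motif (TGANTCA) was matched only in a Lmna window, downstream of the start, against 7.81% of all windows, and no window of the 6 genes held a CArG box, which 1.63% of windows held. A match is a run of letters and not a measured binding site.

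Libraries held 2073171 to 7690892 counts, with a median of 4954915. Levels are given as TMM-scaled CPM (counts relative to the library total, after edgeR's correction for composition), and 3 counts, taken as the smallest level the depth can show, corresponded to 0.386 to 1.51 CPM. Of all genes, 15138 had enough counts to be tested, including all 6 genes described here. A gene is called higher or lower where edgeR's quasi-likelihood test gave a Benjamini-Hochberg adjusted p below 0.1 and the fold change exceeded 2. SE stands for the standard error of a log2 fold change. Comparisons with 0 h share the same 2 samples. The p-values measure the spread between samples within timepoints, estimated in one fit of all 19 samples and not from the 2 groups compared alone. In bulk RNA, fewer cells of a type and less RNA per cell cannot be told apart.

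Over all timepoints together, Nes, Lmna, Des and Vim changed in level and Gfap and Synm did not pass the test. The adjusted p of edgeR's quasi-likelihood F test was 8.36e-05 for Nes, 0.00028 for Lmna, 0.0096 for Des, 0.0959 for Vim, 0.154 for Gfap and 0.666 for Synm. Of all genes tested, 27.4% passed this test. Vim passed narrowly, and without single samples it was lost in 14 of 19 fits (adjusted p of at most 0.359) and kept only without the 3 h or the 96 h sample of replicate 3, without replicate 1 or 3 at 12 h or without replicate 1 at 18 h. With the date as a covariate its adjusted p was 0.124. Calls of Nes, Lmna and Des were kept in all of these fits. The plot of the 6 genes by sample shows differing courses among the 4 genes that passed. Des dipped and came back, Vim and Nes were raised in culture, and Lmna was high at 3 h and again late.

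**Figure D1:**
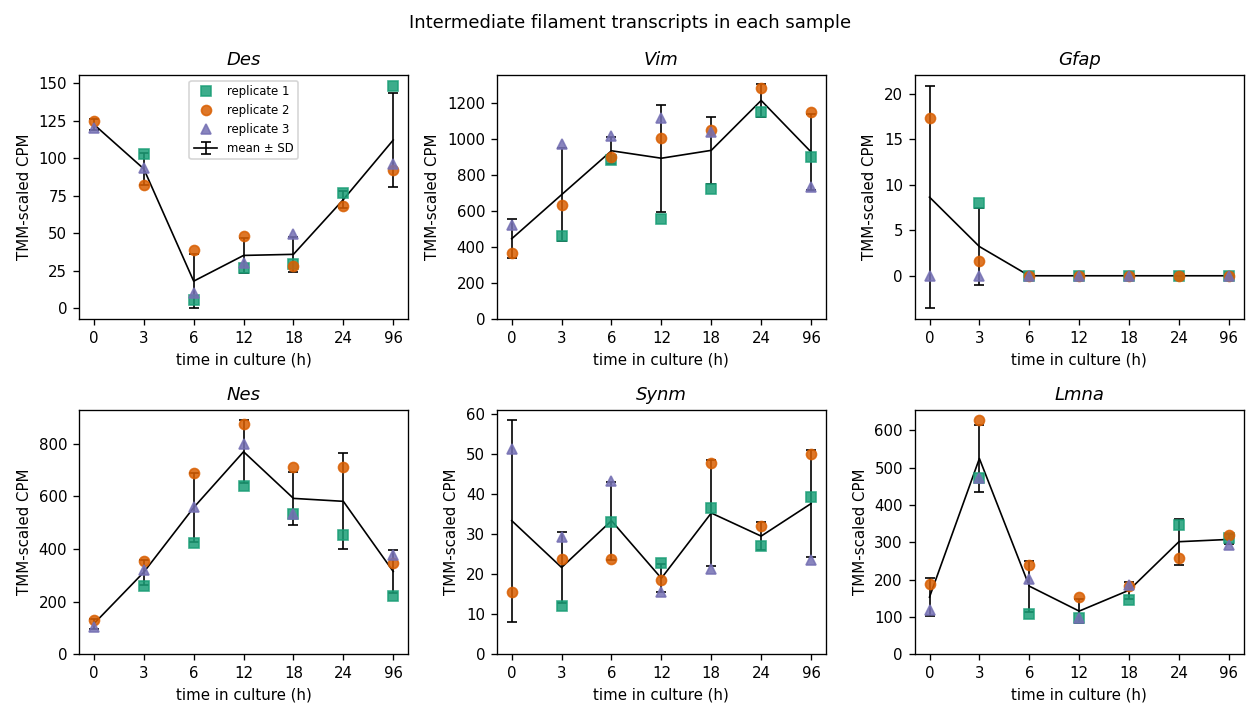
Levels of the 6 intermediate filament genes in each of the 19 samples, in TMM-scaled CPM on linear axes, against time in culture in h (timepoints evenly spaced, not to scale). Symbols are samples by replicate, the line joins group means and bars are SD; Des is lowest at 6 h, Nes highest at 12 h, Lmna highest at 3 h, and Gfap lies at 0 in all 14 samples from 6 h on.

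Des, the type III filament gene used to identify HSCs in rodent liver, fell within 6 h of plating and was back near its starting level at 96 h. It measured 125 and 120 CPM in the samples at 0 h and 103, 82.0 and 93.7 CPM at 3 h. At 6 h the samples held 5.34, 38.8 and 9.87 CPM. At 12 h they held 26.9, 48.3 and 30.3 CPM. All 9 samples from 6 to 18 h lay below every sample at 0, 3, 24 and 96 h. At 18 h the values were 29.7, 28.4 and 49.5 CPM. At 24 h they were 76.6 and 68.3 CPM, and at 96 h 148, 92.4 and 95.8 CPM, which overlapped with 0 h.

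Against 0 h, Des was 6.78-fold lower at 6 h (log2 -2.76, SE 0.59, adjusted p = 0.00577), 3.48-fold lower at 12 h (log2 -1.80, SE 0.57, adjusted p = 0.0476) and 3.41-fold lower at 18 h (log2 -1.77, SE 0.57, adjusted p = 0.0557). It was not called at 3 h (log2 -0.40, adjusted p = 0.847), 24 h (log2 -0.76, adjusted p = 0.555) or 96 h (log2 -0.13, SE 0.58, adjusted p = 0.97). The step from 3 to 6 h was itself called (log2 -2.36, SE 0.55, adjusted p = 0.0232), as was the rise from 12 to 96 h (log2 1.67, SE 0.53, adjusted p = 0.0559). In the order of means (0, 96, 3, 24, 18, 12 and 6 h from high to low), the gap between 24 and 18 h exceeded the larger SD 3.09 times, while 0 h and 96 h, 18 h and 12 h, and 12 h and 6 h differed by less than 1 SD. The calls at 12 and 18 h were lost without either sample of 0 h (adjusted p = 0.171 and 0.134 at 12 h, 0.177 and 0.146 at 18 h) and without replicate 1 or 3 at 12 h (0.131 and 0.132) or replicate 1 or 2 at 18 h (0.146 and 0.145), and the rise to 96 h without replicate 1 or 3 at 12 h (0.154 and 0.161) or replicate 1 at 96 h (0.165). Fitted on the samples of both groups alone, the fall at 6 h had an adjusted p of 0.125 against 0 h and 0.111 against 3 h.

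Vim, the general mesenchymal type III gene, was higher in culture than in uncultured cells, by about the fold that the call requires. It measured 371 and 524 CPM at 0 h and 464, 637 and 975 CPM at 3 h, where the groups overlapped. At 6 h the values were 884, 903 and 1020 CPM and at 12 h 557, 1008 and 1118 CPM. At 18 h they were 722, 1051 and 1041 CPM. All samples from 6 h on lay above both samples at 0 h. At 24 h Vim reached 1149 and 1281 CPM, and at 96 h it held 900, 1154 and 734 CPM.

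The fold against 0 h was 2.09 at 6 h (log2 1.06, SE 0.33, adjusted p = 0.0539), 2.10 at 18 h (log2 1.07, SE 0.33, adjusted p = 0.0432), 2.72 at 24 h (log2 1.44, SE 0.35, adjusted p = 0.0173) and 2.08 at 96 h (log2 1.05, SE 0.33, adjusted p = 0.0591). At 12 h the log2 difference of 1.00 (SE 0.33, adjusted p = 0.0538) stayed just under the fold limit. No interval between timepoints in culture was called for Vim, and in the order of means only 24 h stood above its neighbour 18 h without overlap. Without the 0 h sample of replicate 2, none of the 4 calls was kept (adjusted p = 0.359, 0.347, 0.202 and 0.397 at 6, 18, 24 and 96 h). The calls were also lost at 6 h without the 0 h sample of replicate 3 (0.103) or replicate 2 or 3 at 6 h (0.1 and 0.126), at 18 h without replicate 2 or 3 (0.128 and 0.104) and at 96 h without replicate 2 (0.183), and DESeq2 gave log2 differences of 0.83, 0.83 and 0.90 at 6, 18 and 96 h, under the fold limit.

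Gfap, the astrocyte filament gene that rodent HSCs share, was barely detected. At 0 h, replicate 2 held 17.3 CPM and replicate 3 held 0 counts. At 3 h the samples held 7.96, 1.68 and 0 CPM. In the 14 samples from 6 to 96 h, with 71532511 counts in sum, Gfap had 0 counts. The 0 h samples together (69 counts, 10.6 CPM) were at least 50.7-fold higher than 6 h and at least 62.9-fold higher than 12 h, taking 3 counts over each later group as its floor, and this rests on 1 of the 2 samples at 0 h. The floor covers counting error only. The fitted test called Gfap at no timepoint (adjusted p = 0.168 at 12 h and 0.22 at 6 h), and the range of the samples at 0 h includes 0.

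Nes, the type IV gene whose product copolymerises with vimentin and desmin, was called at every timepoint against 0 h. It measured 129 and 102 CPM at 0 h and 259, 354 and 321 CPM at 3 h. At 6 h the samples held 424, 687 and 560 CPM, and at 12 h 637, 873 and 797 CPM. The values at 18 h were 534, 709 and 532 CPM. All cultured samples lay above both samples at 0 h. At 24 h Nes held 451 and 710 CPM, and at 96 h it was down to 220, 348 and 376 CPM.

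Against 0 h, the fold was 2.69 at 3 h (log2 1.42, SE 0.29, adjusted p = 0.00769), 4.80 at 6 h (log2 2.26, SE 0.30, adjusted p = 0.000123) and 6.63 at 12 h (log2 2.73, SE 0.31, adjusted p = 1.41e-05). It was 5.10 at 18 h (adjusted p = 5.23e-05), 5.00 at 24 h (adjusted p = 0.000144) and 2.71 at 96 h (log2 1.44, SE 0.29, adjusted p = 0.00394). From 12 to 96 h Nes fell 2.45-fold (log2 -1.29, SE 0.25, adjusted p = 0.0024). In the order of means (12, 18, 24, 6, 96, 3 and 0 h), 18, 24 and 6 h differed by less than 1 SD, as did 96 and 3 h, whereas 6 and 96 h did not overlap and 3 h exceeded 0 h by 4.07 times the larger SD. All 6 cultured samples of replicate 2 were higher than the 0 h sample of their date (log2 1.43 to 2.75), and so were all 11 of replicates 1 and 3, which share the other date (log2 1.10 to 2.96). The call at 3 h was lost without the 0 h sample of replicate 3 (adjusted p = 0.115).

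Synm, whose product links desmin and vimentin filaments to adhesion sites, was not called in any comparison. It measured 15.5 and 51.2 CPM at 0 h, with an SD of 25.2 CPM, the largest of the 7 groups. At 3 h the samples held 11.9, 23.7 and 29.4 CPM, at 12 h 22.7, 18.7 and 15.6 CPM and at 96 h 39.3, 50.05 and 23.6 CPM. Log2 differences against 0 h lay between -0.81 (SE 0.60) at 12 h and 0.18 (SE 0.61) at 96 h. At 6, 18 and 24 h its samples lay between 21.4 and 47.9 CPM, within the range of the samples at 0 h.

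Lmna, which codes for the A-type lamins, rose within 3 h, fell back by 6 h and was higher again late in culture. It measured 189 and 118 CPM at 0 h and 471, 628 and 473 CPM at 3 h. At 6 h the samples held 107, 239 and 201 CPM. At 12 h they held 96.6, 153 and 97.3 CPM. The samples at 3 h lay above all other samples, and those at 6 and 12 h overlapped with 0 h. At 18 h Lmna held 145, 183 and 186 CPM, at 24 h 345 and 258 CPM and at 96 h 312, 319 and 292 CPM.

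Lmna was 3.42-fold higher at 3 h than at 0 h (log2 1.77, SE 0.33, adjusted p = 0.00434) and 2.87-fold lower at 6 h than at 3 h (log2 -1.52, SE 0.28, adjusted p = 0.0066). At 6, 12 and 18 h the log2 differences against 0 h were 0.25, -0.41 and 0.16, none called. From 12 to 96 h Lmna rose 2.66-fold (log2 1.41, SE 0.28, adjusted p = 0.00334). In the order of means (3, 96, 24, 6, 18, 0 and 12 h), 3 h stood above 96 h and 24 h above 6 h without overlap, and the other neighbours differed by less than 1 SD. Against 0 h, 96 h just passed the fold limit (log2 1.00, SE 0.32, adjusted p = 0.0678) and 24 h did not pass (log2 0.98, SE 0.34, adjusted p = 0.113). The call at 96 h was lost in 10 of 26 alternatives. Among these, the adjusted p was 0.427 without the 0 h sample of replicate 3 and 0.126, 0.136 and 0.111 without replicate 1, 2 or 3 at 96 h, and without replicate 2 at 12, 18 or 24 h the log2 difference fell just under the limit (0.997, 0.997 and 0.9996).

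Counted by timepoint, 2 of the 6 genes were higher at 3 h (Nes and Lmna), where 4.19% of all genes tested were called higher. At 6 h 2 were higher (Vim and Nes, 6.98% of all genes) and Des was lower (4.35%), and at 12 h 1 was higher (Nes, 8.6%) and Des lower (9.1%). At 18 h 2 were higher (Vim and Nes, 7.64%) and Des lower (8.21%). At 24 h 2 were higher (Vim and Nes, 5.65%), and at 96 h 3 were (Vim, Nes and Lmna, 5.83%), while none was lower (5.03%). The median log2 difference of the 6 genes against 0 h, with Gfap at its bound where a group was at 0, ran from -0.61 at 12 h to 0.59 at 96 h, beside -0.09 and 0.12 for all genes.

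Between timepoints in culture, Des and Lmna were lower at 6 h than at 3 h, where 1.99% of all genes were called lower. Des and Lmna were also higher at 96 h than at 12 h (6.96% of all genes called higher), where Nes was lower (6.57%). None of the 6 genes was called from 6 to 12 h, 12 to 18 h, 18 to 24 h or 24 to 96 h. In those intervals 1.84%, 0.225%, 0.0396% and 2.72% of all genes were called in either direction. Sample ranges that do not overlap were common among all genes. Against 0 h they were found for 35.2%, 38.9% and 43.2% of genes at 3, 6 and 12 h, and for 40.4%, 48.8% and 41.9% at 18, 24 and 96 h, in that order. Between timepoints in culture the share was 25.1% from 3 to 6 h, 17.2% from 6 to 12 h, 11.3% from 12 to 18 h, 20.2% from 18 to 24 h, 31.8% from 24 to 96 h and 33.8% from 12 to 96 h.

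**Figure D2:**
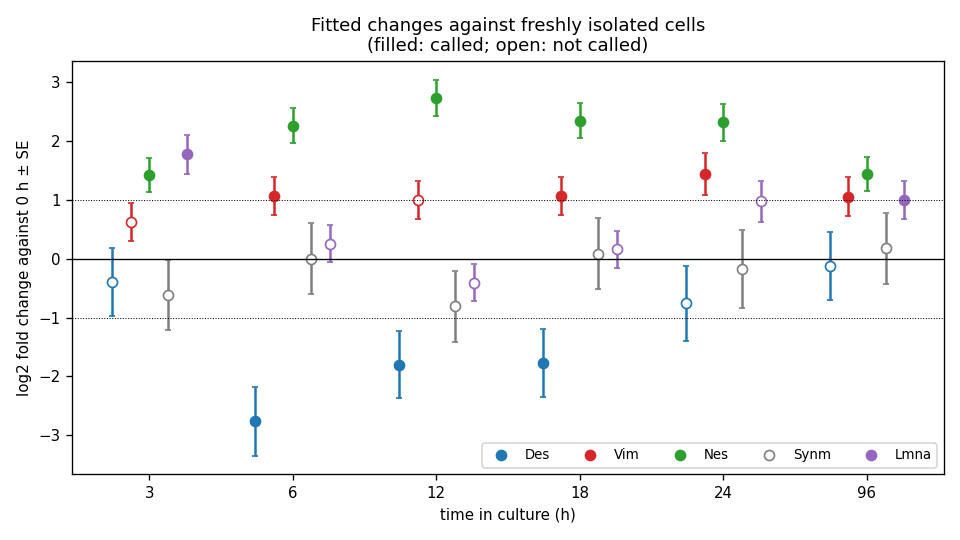
Fitted log2 fold changes against 0 h (y axis, bars are SE) for Des, Vim, Nes, Synm and Lmna at each timepoint in h (x axis, evenly spaced), with called values filled, others open and dotted lines at the fold limit of 2. Nes is filled at all 6 timepoints, Des is filled below 0 at 6, 12 and 18 h, and Synm is open throughout; Gfap is left out because its later samples are at 0.

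The balance between Vim and Des moved with time. The ratio of their CPM was 2.97 and 4.37 at 0 h and 4.502, 7.77 and 10.4 at 3 h. At 6 h the samples held 166, 23.3 and 103, and at 12 h 20.7, 20.9 and 36.9. At 96 h the ratio was 6.07, 12.5 and 7.66, above both samples at 0 h. The log2 ratio differed between timepoints (F = 10.2, permutation p = 4e-04, one-sided, 100000 resamples), and without the 6 h sample of replicate 2 its F was 26.2. The summed level of the 6 genes was 847 and 915 CPM at 0 h and 1318 to 2350 CPM in the cultured samples (F = 5.79, permutation p = 0.0111). By group mean, Vim made up 41.2 to 55.3% of this sum, Nes 13.2 to 42.6% and Lmna 6.4 to 32.4%. Des made up 0.98 to 13.9%, Synm at most 3.7% and Gfap at most 1.02%. The sum is thus carried by the genes with the most counts and does not stand for all 6 alike. Without a 0 h sample the summed level no longer passed (F = 2.88, permutation p = 0.0764 without replicate 2, and F = 3.43, permutation p = 0.0522 without replicate 3), and without the 12 h sample of replicate 1 its F was 9.25.

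**Figure D3:**
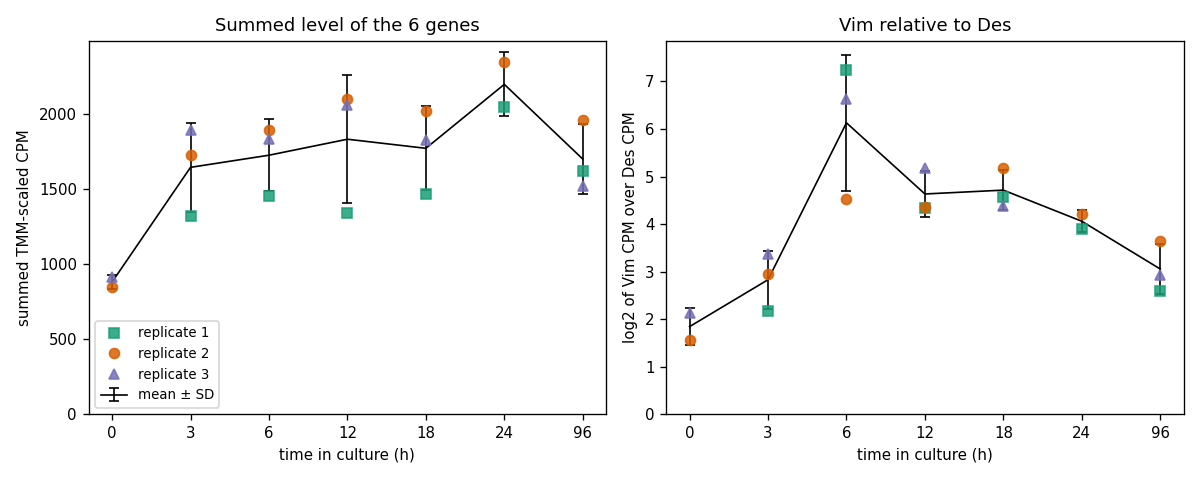
Summed TMM-scaled CPM of the 6 genes (left) and log2 of the ratio of Vim CPM to Des CPM (right) in each sample against time in culture in h (evenly spaced), with symbols for the replicates, group means joined by a line and SD bars. Both samples at 0 h lie at the bottom of the left panel, and the log2 ratio peaks at 6 h, where the samples run from 4.52 to 7.24.

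Genes that follow the same course were sought among those with a mean of at least 20 CPM by Pearson's r of log2 CPM over the 19 samples, which share their libraries and depth. Nes was closest to Wdr36 (r = 0.96), Txnrd1 (r = 0.95) and Aars (r = 0.95), a ribosome biogenesis factor, a thioredoxin reductase and a tRNA synthetase. Des was closest to Fto (r = 0.91), Ppp1r14a (r = 0.90), an inhibitor of myosin phosphatase, and Slc25a24 (r = 0.89). Lmna was closest to Pnp (r = 0.86), Chd4 (r = 0.82) and the chaperone gene Dnajb1 (r = 0.81), and Vim to Pitrm1 (r = 0.85), Kpna1 (r = 0.84) and cytoplasmic actin Actg1 (r = 0.83). The highest r was 0.75 for Gfap (with Sbf2) and 0.71 for Synm (with Mapk9). Among the 6 genes themselves, r was highest for Vim with Nes (0.66) and Des with Lmna (0.56).

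Of the other intermediate filament genes, 6 of 19 could be tested, and the B-type lamins Lmnb1 and Lmnb2 were the ones called. Lmnb2 had 0 counts in both samples at 0 h. It held 22.6, 37.9 and 16.3 CPM at 3 h, 25.2, 16.5 and 0 CPM at 6 h and 50.9, 114 and 52.3 CPM at 18 h. Lmnb2 was called higher at all 6 timepoints. Taking 3 counts over the 0 h samples as the floor, it was at least 49.8-fold higher at 3 h and at least 179-fold higher at 18 h. This floor covers counting error only. A sample can read 0 beside others that do not, as replicate 3 at 6 h did beside 85 and 83 counts, so the bounds are not firm. Lmnb1 held 21.6 and 0 CPM at 0 h and 58.0, 127 and 80.6 CPM at 18 h, where it was called (log2 2.99, SE 1.09, adjusted p = 0.0893), a call that was lost in 15 of 26 alternatives, with an adjusted p of at most 0.28. The calls of Lmnb2 at 3 h were lost without either 0 h sample (adjusted p = 0.158 and 0.109) and at 6 h without that of replicate 2 (0.149) or fitted on the samples of both groups alone (0.244). At 18 h, 2 of these 6 genes were called higher and 0 lower (7.64% and 8.21% of all genes), with a median log2 difference of 0.36 beside -0.02 for all genes. At 3, 6, 12, 24 and 96 h, 1 was higher each time and 0 lower (4.19%, 6.98%, 8.6%, 5.65% and 5.83% of all genes higher). Of all genes, 4.35%, 9.1% and 5.03% were lower at 6, 12 and 96 h. The medians there were -1.21, -1.30, -1.46, 0.52 and -0.74, beside -0.04, -0.06, -0.09, 0.08 and 0.12 for all genes, in that order. At 3, 6, 12 and 96 h the values below 0 were those of Krt8, Krt18 and Iffo1, none called. These genes had few counts, with means of 7.78, 2.01 and 16.7 CPM at 0 h, and Iffo2, Lmnb1 and Lmnb2 lay above 0. The medians thus fall in the gap between these groups and do not show a typical fall.

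Of the 11 linkers and chaperones of the filaments tested, 6 were called at 96 h and 0 at 24 h (5.65% of all genes higher at 24 h). At 3 h 1 was higher (4.19% of all genes) and at 6 h 1 was lower (4.35%). At 12 and 18 h 2 were lower each time (9.1% and 8.21%) and 0 higher (8.6% and 7.64%). At 96 h 5 were higher and 1 was lower (5.83% and 5.03% of all genes), with a median log2 difference of 1.03 beside 0.12 for all genes. Cryab, the small heat shock protein that binds desmin, held 157 and 164 CPM at 0 h and 37.4, 50.3 and 98.7 CPM at 6 h (log2 -1.37, SE 0.39, adjusted p = 0.0358). At 96 h its samples held 2444, 2390 and 3421 CPM (log2 4.10, SE 0.47, adjusted p = 2.73e-05), above all earlier samples. The fall at 6 h was lost without either 0 h sample (adjusted p = 0.13 and 0.133) or replicate 1 or 2 at 6 h (0.122 and 0.104), and it had an adjusted p of 0.162 when fitted on both groups alone, while the rise at 96 h was kept in all 26 alternatives (adjusted p at most 0.00191). Hspb1, Hspb8 and Dst were also higher at 96 h (log2 2.87, 1.70 and 1.03). The call of Dst was lost in 6 of 26 alternatives (adjusted p of at most 0.242), and that of Hspb8 without the 0 h sample of replicate 2 (0.201). Plec, the plectin gene whose product cross-links filaments, held 60.9 and 49.2 CPM at 0 h and was higher at 3 h (167, 179 and 123 CPM, log2 1.503, adjusted p = 0.0214) and at 96 h (210, 104 and 169 CPM, log2 1.55, adjusted p = 0.0102), and neither call was kept without the 0 h sample of replicate 3 (0.216 and 0.116). Macf1, a linker of actin and microtubules, was lower at 12 h (log2 -1.47, adjusted p = 3.24e-05) and 18 h (log2 -1.39), and Dmd, the dystrophin gene, was lower at 12, 18 and 96 h (log2 -2.95, -2.98 and -2.67). The calls of Dmd were lost in 2, 1 and 6 of 26 alternatives, in that order, with an adjusted p of at most 0.258.

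**Figure D4:**
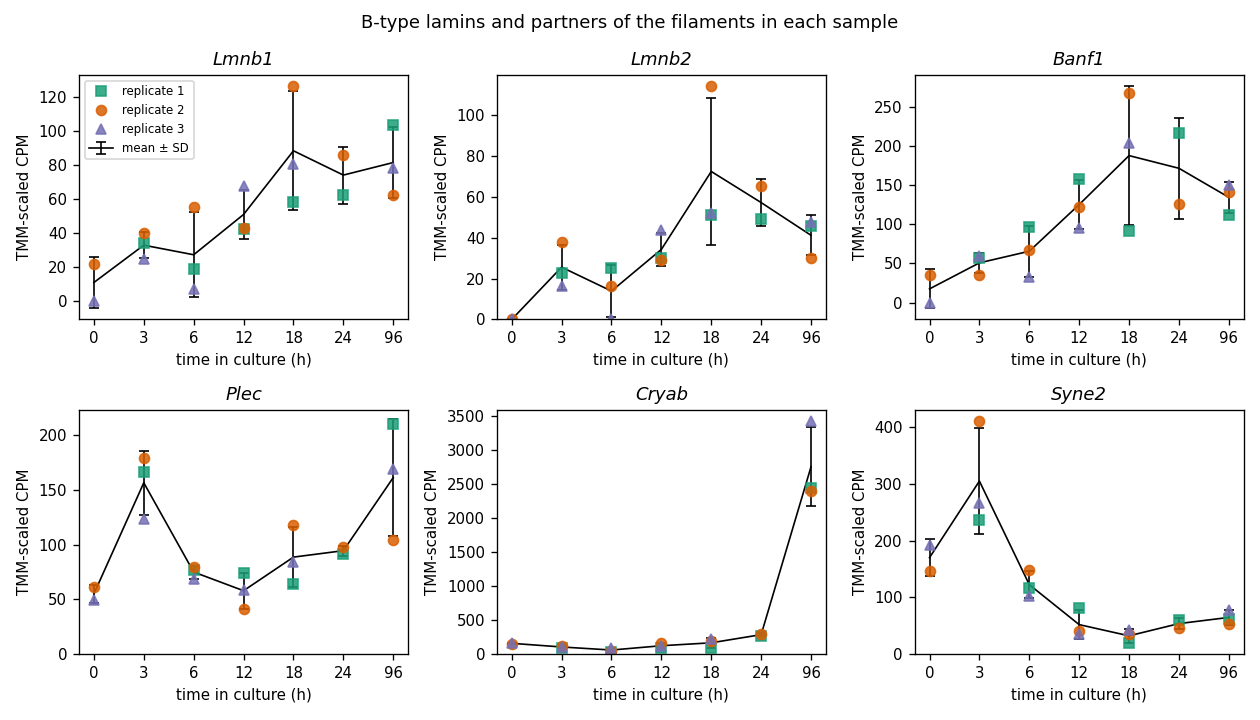
Levels of Lmnb1, Lmnb2, Banf1, Plec, Cryab and Syne2 in each sample in TMM-scaled CPM on linear axes against time in culture in h (evenly spaced), with symbols for the replicates, group means joined by a line and SD bars. Lmnb2 lies at 0 in both samples at 0 h, Cryab stands at 2390 CPM or more at 96 h alone, and Syne2 is below its 0 h samples from 12 h on.

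Among genes of the nuclear lamina and of the LINC complex, which ties the lamina to the cytoskeleton, 1 of 12 tested was higher and 3 were lower at 96 h (5.83% and 5.03% of all genes), with a median log2 difference of -0.26 beside 0.12 for all genes. At 12 h 1 was higher and 2 were lower (8.6% and 9.1%), and at 18 h 1 was higher and 1 lower (7.64% and 8.21%). At 24 h 1 was higher (5.65%) and 1 lower, where the share of all genes lower was not computed. At 6 h 1 was lower (4.35%) and at 3 h 0 were called (4.19% of all genes higher). Banf1, which codes for a chromatin-binding partner of lamins, held 35.1 and 0 CPM at 0 h and 91.6, 267 and 204 CPM at 18 h (log2 3.37, SE 0.99, adjusted p = 0.0338), and it was called from 12 to 96 h. Syne2, the gene of the outer nuclear membrane protein nesprin-2, held 147 and 193 CPM at 0 h and 19.01, 36.1 and 42.3 CPM at 18 h (log2 -2.39, SE 0.39, adjusted p = 0.000565), and it was lower from 12 to 96 h. Sun1, whose product binds nesprins, was lower at 6 and 96 h (log2 -1.39 and -1.37), and Tor1aip1 was lower at 96 h (log2 -1.42). The calls of Sun1 were lost in 8 and 12 of 26 alternatives (adjusted p of at most 0.501), that of Tor1aip1 in 2 (at most 0.165) and those of Banf1 in 5, 1, 5 and 10 at 12, 18, 24 and 96 h, in that order (at most 0.302). The calls of Syne2 at 12 and 18 h were kept in all 26. Its call at 24 h was lost without the 0 h sample of replicate 3 (0.16) or either sample of 24 h (0.112 and 0.263), and that at 96 h without the 0 h sample of replicate 3 (0.221) or replicate 2 at 96 h (0.117). Of the 6 genes that process prelamin A, 0 were called at any timepoint. Of all genes, 4.19% (3 h) to 8.6% (12 h) were called higher, and 4.35% (6 h) to 9.1% (12 h) lower where computed. Median log2 differences of these 6 genes ran from -1.32 at 6 h to 0.11 at 96 h, beside -0.06 and 0.12 for all genes.

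Cell type markers moved with time as well, and their part in the results above was not tested. The summed level of 10 stellate cell markers was 28654 to 33645 CPM at 0 h, 16799 to 17764 CPM at 6 h, 1847 to 1886 CPM at 24 h and 2702 to 2991 CPM at 96 h, and all 10 had counts at 0 h, with Ngfr at 0 from 18 h on. Most of this sum was Dcn, with a mean of 19179 CPM at 0 h and 1929 CPM at 96 h. Of these 10 markers, 5 were called lower at 6 h (4.35% of all genes) and 10 at 12 h (9.1%). At 18 h 10 were lower (8.21%) and at 96 h 9 were (5.03%). Hepatocyte markers summed to 3083 to 6750 CPM at 0 h and 372 to 1092 CPM at 3 h, and lay between 4.04 and 329 CPM later. Kupffer cell and leukocyte markers summed to 315 to 326 CPM at 0 h and to at most 40.2 CPM from 6 h on, with Adgre1 at 0 from then on. Sinusoidal endothelial markers summed to 536 to 761 CPM at 0 h, 753 to 2522 CPM at 3 h and 25.8 to 178 CPM at 96 h.

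Cholangiocyte markers summed to at most 19.1 CPM, with Krt19 and Krt7 at 0 in every group. Smooth muscle and mesothelial markers summed to 16.8 to 31.6 CPM at 0 h and 93.8 to 116 CPM at 96 h, with Msln and Upk3b at 0 in every group. Markers of cycling cells summed to 319 to 357 CPM at 96 h, where Des and Lmna were higher than at 12 h, and to at most 77.4 CPM in any earlier sample.

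**Figure D5:**
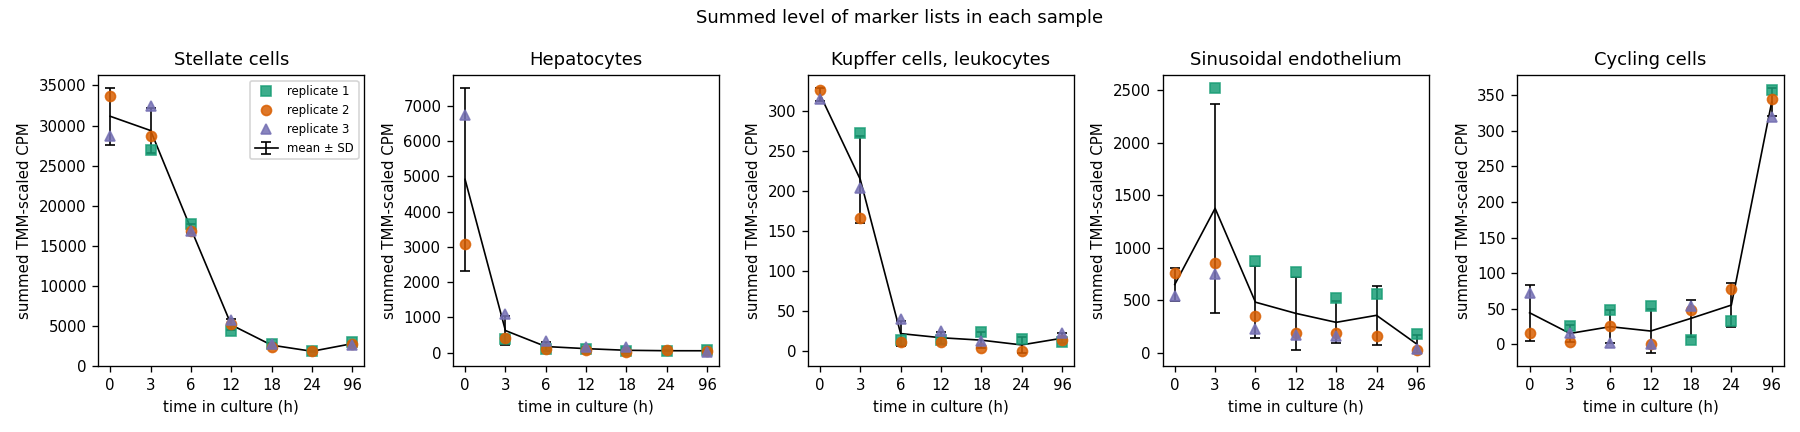
Summed TMM-scaled CPM of the marker lists for stellate cells, hepatocytes, Kupffer cells with leukocytes, sinusoidal endothelium and cycling cells in each sample against time in culture in h (evenly spaced), with symbols for the replicates, group means joined by a line and SD bars. Stellate cell and hepatocyte markers are highest at 0 or 3 h, and cycling markers reach 319 to 357 CPM at 96 h.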

How the data were processed

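Bulk RNASeq counts were analysed for the 19 samples. Per the labels, libraries were made from 3′ ends; according to the study they were sequenced single-end, and per the labels the reads were processed with STAR and StringTie against mm10. The authors deposited raw counts per gene, whole numbers without normalization; the counting tool and annotation are not given in the sources used here. Technical repeats were joined before deposit. Symbols and positions came from GENCODE vM21, which matched 55227 identifiers, and promoters from RefSeq.

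Groups and replicate numbers came from the labels. Genes passing edgeR's filterByExpr defaults were TMM-scaled and tested in one quasi-likelihood fit of all samples on timepoint (R 4.3.3, edgeR 4.0.16), tested on simulated data. Limits of adjusted p below 0.1 and a fold above 2 follow those the study gives for its in vivo comparisons, where it does not say whether p was adjusted. Lower bounds set 3 counts against groups at 0, and genes at or under this floor in both groups have no fold and were left out of medians. Named genes are the 6 members, up to 4 called genes per related list (by timepoints called, then size at 96 h) and the 3 genes most like each member; Hspb1, Hspb8 and Dst were added after their values were seen. Summed level and ratio (pseudocount 0.5 CPM) were tested by permutation. The members and lists were chosen with earlier results of these data known.

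Alternatives replaced TMM, edgeR (by DESeq2 1.42.0), the filter, the call rule and the fit of all groups, added the replicate number as a block or the date, changed the pseudocount, or left out single samples. Depth sets a floor of 0.386 to 1.51 CPM per sample, which covers counting error only. Plots were drawn with matplotlib 3.10.9. One marker list is not reported here.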

Additional observations from a re-analysis of the deposited data

Results flagged for a closer look

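Synm moved in opposite directions on the 2 dates, each of which has 1 sample at 0 h. On the date of replicate 2, all 6 cultured samples were higher than the sample at 0 h, by a log2 ratio of at least 0.263, while on the date of replicates 1 and 3 all 11 cultured samples were lower, by a log2 ratio of -0.242 or below. The 0 h samples differ most (15.5 CPM in replicate 2 and 51.2 CPM in replicate 3), and every ratio on a date shares its 0 h sample. The difference between the dates was not tested. No group holds 4 samples, so no search for single samples far from the others was made.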

How the results depend on the processing

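No called result on the 6 genes changed direction in 520 tests under the alternatives. Of 1317 tests of results that were not called, 55 changed sign, 21 of them for Synm, as at 12 h without replicate 3 of 0 h (log2 0.27). Summed over the 6 timepoints, 12 calls against 0 h were higher and 3 lower; the alternatives other than leaving out a sample gave 8 to 14 and 2 to 3, and leaving out single samples gave 8 to 13 and 1 to 3 (1 lower without either sample of 0 h). Between timepoints in culture, 2 calls were higher and 3 lower. An adjusted p below 0.05 with no fold limit left 1 higher, and leaving out single samples gave 1 to 3 higher and 3 to 3 lower (1 higher without replicate 1 or 3 at 12 h, or replicate 1 at 96 h). The number of genes passing over all timepoints was 4, and 3 to 4 without single samples, Vim being the one lost. Sums of calls serve only to compare the alternatives, and no share of all genes was pooled beside them. Related genes gave 17 higher and 14 lower calls. DESeq2 gave 23 lower, the other alternatives 12 to 22 higher and 10 to 15 lower, and leaving out single samples gave 14 to 21 higher and 8 to 17 lower (8 without the 0 h sample of replicate 3). The cause of these differences was not tested. F ran from 2.88 to 9.25 for the summed level and from 7.76 to 26.2 for the ratio of Vim to Des without single samples. The main fit did not pair samples by replicate number, because the labels do not say what it stands for. Residuals of same-numbered samples correlated at 0.014 over 51 pairs, against -0.007 over 103 other pairs. Yet 13 of 19 samples correlated best with their own number. Replicate 1 also had the highest sum of sinusoidal endothelial markers at every cultured timepoint (2522 CPM at 3 h, beside 850 and 753 CPM). Whether same-numbered samples share an origin was not tested, and the main fit ignores any such pairing. With the number as a replicate block, Vim at 12 h (log2 1.11) and Lmna at 24 h (log2 1.09) were called in addition, and no call on the 6 genes was lost; permuted within numbers, the summed level had a permutation p of 0.00766 and the ratio one of 0.00067. Of 380 tests of called results without single samples 29 lost the call, and of 140 under other alternatives 12 did. Of the called related genes, 67 of 589 and 29 of 217 did, and none changed direction. Scaling by library size moved the median of all genes with counts in both groups by between -0.126 (24 to 96 h) and 0.279 (0 to 24 h) on the log2 scale, and called Vim at 12 h, Lmna at 24 h and the fall of Nes from 24 to 96 h (log2 -1.01) in addition.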
